A study of Mus musculus with 16 samples.

Results

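The Frizzled receptor genes of mouse skin, Fzd1 to Fzd10, were followed after transgenic TERT was switched off in the hair follicle and epidermis. All probe sets whose symbol was 1 of these 10 genes were taken, 26 of the 34945 probe sets that carry a symbol, which cover 18193 genes. The values are microarray intensities from dorsal skin biopsies of iK5-TERT mice (K5tTA-tetop-TERT), in which the keratin 5 promoter drives the tetracycline transactivator in basal keratinocytes and the outer root sheath, so that doxycycline silences the TERT transgene. All mice carried both transgenes and had received doxycycline (5 µg/ml) in their water until day 10 to 21. By the study's account they were in TERT-induced anagen, the growth phase of the hair cycle, at day 60. The TERT-off cohort was injected with doxycycline (8 µg/g body weight) and the TERT-on cohort with vehicle. Biopsies were taken at 0, 6, 12 and 24 h, which gives 16 arrays and 2 in each of 8 groups. The study describes serial biopsies, and each replicate number was read here as a mouse, 2 a cohort. The labels do not name the animals. The labels call the TERT-off biopsies of 0 h injected, whereas the study's text places them just before the injection, and they were read here as samples with TERT still on. At 0 h the hair shaft markers of TERT-off replicate 1 were low (mean log2 intensity 4.39, against 9.40 to 11.26 in the other mice). Mice without the transgenes were not analysed here, so each difference is between these cohorts.

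Frizzled proteins are multi-pass membrane receptors that bind secreted Wnt ligands through a cysteine-rich extracellular domain. Together with the co-receptors Lrp5 and Lrp6 they act through Dishevelled to stabilize β-catenin, and with other partners they set planar cell polarity. In skin, Wnt signals are needed to form hair follicles and to start a new anagen, and mice that lack Fzd6 have misoriented hairs.

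The upstream sequences of Fzd5 and Fzd1, receptors that were lower in TERT-off skin, are shown first, to set the letters of the receptor with the largest difference beside those of another that was lower. RefSeq promoter windows (build GRCm38.p6) were used for 6 of the 10 genes, among them Fzd5 and Fzd1 but not Fzd6, which was also lower. The 250 bases before the annotated start are given 5′ to 3′ on the strand of the gene, at chr1:64737751-64738000 (minus strand) for Fzd5 and at chr5:4758217-4758466 (minus strand) for Fzd1. Capitals mark matches on either strand to the TCF/LEF cores CTTTGA and CTTTGT, the GC box GGGCGG, the CCAAT box CCAAT and the TATA box TATAAA.
Fzd5: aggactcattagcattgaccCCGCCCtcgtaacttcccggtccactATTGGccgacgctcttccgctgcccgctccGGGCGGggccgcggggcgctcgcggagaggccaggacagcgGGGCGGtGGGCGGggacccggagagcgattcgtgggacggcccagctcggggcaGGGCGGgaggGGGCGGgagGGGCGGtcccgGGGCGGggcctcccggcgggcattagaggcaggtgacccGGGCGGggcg
Fzd1: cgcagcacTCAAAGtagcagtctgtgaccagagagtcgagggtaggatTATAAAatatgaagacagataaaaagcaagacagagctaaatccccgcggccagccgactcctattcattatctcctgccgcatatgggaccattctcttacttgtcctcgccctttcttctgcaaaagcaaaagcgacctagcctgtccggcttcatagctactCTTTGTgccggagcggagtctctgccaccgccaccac
The Fzd5 window had 76.4% G or C and 32 CpG pairs, with 9 GC box matches, 1 CCAAT match and none of the TCF/LEF or TATA letters. The Fzd1 window had 51.2% G or C and 12 CpG pairs, with 1 match to each TCF/LEF core, 1 TATA match and no GC or CCAAT box. Over all 32851 windows of the same length the median was 52.4% G or C with 6 CpG pairs, and 13.8% held CTTTGA, 16.5% CTTTGT, 32.7% GGGCGG, 33.8% CCAAT and 12.4% TATAAA. No letters of this set occurred in both printed windows. Of the other receptors, Fzd7 had 1 CTTTGT match, and the windows of Fzd4, Fzd9 and Fzd10 had neither TCF/LEF core. These windows were rich in G or C as well, at 72.8% (Fzd4), 65.2% (Fzd7) and 76.4% (Fzd9 and Fzd10). Their CpG pairs numbered 25 (Fzd4), 17 (Fzd7), 42 (Fzd9) and 37 (Fzd10), and their GC box matches 7, 6, 1 and 1.

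Tert was lower after injection in the cohort labelled TERT-off. At 0 h Tert, the catalytic subunit of telomerase, had intensities of 185 and 200 in the TERT-off mice and of 357 and 216 in the TERT-on mice, and over 6 to 24 h it lay between 8.32 and 16.1 in TERT-off skin, against 22.6 to 64.6 in TERT-on skin (log2 difference −1.76, standard error 0.26, adjusted p = 0.00278 from limma). Its intensity was thus below that of 0 h on every later array of the TERT-on mice too. The 16 arrays had similar median intensities (32.9 to 36.3). The 0 h array of TERT-on replicate 1 differed from the rest in RNA quality, with a ratio of 5′ to 3′ Gapdh signal of 0.0599, against 0.977 to 1.12 on the other arrays. The cohorts also differed in cell type markers. Over 6 to 24 h all 10 measured hair shaft markers were lower in TERT-off skin (median log2 difference −4.96, and −1.67 at 0 h), as were 7 of 8 inner root sheath, 6 of 8 hair matrix (median −2.22) and 6 of 6 melanocyte markers, whereas 5 of 5 macrophage, 5 of 5 neutrophil and 5 of 6 fibroblast markers (median 0.58) were higher. Markers of basal keratinocytes, where the transgene is active, were all detected, with 0 of 6 lower and 1 of 6 higher. Of the markers of the outer root sheath and bulge, where it is active too, 2 of 6 were lower and 2 of 6 higher (median −0.04).

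Of the 26 Frizzled probe sets, 16 passed the filter on low values (an intensity over 34.4, the table's median, in 2 or more biopsies) and stood for 9 genes. The only Fzd9 probe set did not pass it. In the mean over 6, 12 and 24 h, 5 of the 16 were lower in TERT-off skin, relative to the TERT-on cohort, at an adjusted p under 0.05, from a limma fit with Benjamini-Hochberg adjustment over all 25563 probe sets kept, and 0 were higher (8 of 16 had an unadjusted p under 0.05). Of all probe sets 25.9% were called, 10.8% lower and 15.1% higher. At gene level, with the probe set of highest mean standing for each gene, Fzd1, Fzd5 and Fzd6 were lower, 3 of 9, where 29.5% of all 12580 genes were called and 12.6% were lower. The median log2 difference of the 9 genes was −0.36, that of all genes 0.04, and 14 of the 16 fitted differences were negative, against 46.1% of all. The 0 h samples leaned the same way: the median of the 9 genes was −0.40 there, that of all genes −0.02, and TERT-off replicate 1 had the lowest intensity of the 4 mice in 6 of the 9 genes.

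**Figure D1:**
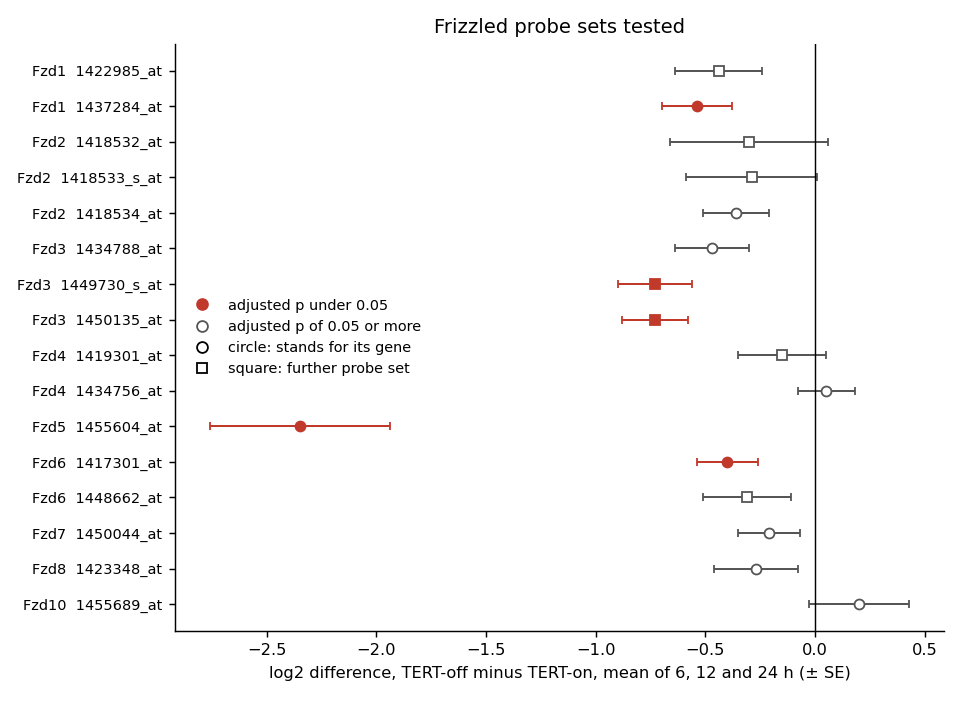
Mean of the log2 cohort differences (TERT-off less TERT-on) at 6, 12 and 24 h for each of the 16 Frizzled probe sets tested (horizontal axis; bars are the standard error of the limma fit, 6 arrays against 6). Filled red symbols have an adjusted p under 0.05, and circles mark the probe set that stands for its gene. Fzd5 lies at −2.35, and the other 15 lie between −0.73 and 0.20.

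Fzd5 and Fzd8 form a subfamily that signals through β-catenin, and in mice Fzd5 is needed for growth of placental vessels and for the maturation of intestinal Paneth cells. After injection Fzd5 was lower in the TERT-off cohort, without overlap at 12 and 24 h. How many of all probe sets were apart at those times was not counted, and over 6 to 24 h as a whole Fzd5 overlapped between the cohorts. On probe set 1455604_at its intensity in TERT-off replicate 1 was 71.9 before injection, then 52.1, 41.8 and 47.5 after 6, 12 and 24 h. For TERT-off replicate 2 the values were 241 before injection, then 318, 55.5 and 58.8. The TERT-off mice thus differed from each other at 0 and 6 h and lay close together at 12 and 24 h. In TERT-on replicate 1 the intensity was 316, 426, 393 and 291 at 0, 6, 12 and 24 h, and in TERT-on replicate 2 it was 211, 311, 375 and 333. At 12 and 24 h the TERT-off values were all under the TERT-on values, whereas at 0 and 6 h TERT-off replicate 2 lay between the TERT-on mice and TERT-off replicate 1 below both.

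Averaged over 6 to 24 h the log2 difference of Fzd5 was −2.35 (standard error 0.41, adjusted p = 0.00448 from limma), a level 5.10-fold lower in TERT-off skin. The call was lost without TERT-on replicate 1 (−2.30, adjusted p = 0.0672) or TERT-on replicate 2 (−2.40, adjusted p = 0.109), fits that called only 3.74% and 0.284% of all probe sets. Without TERT-off replicate 1 the difference was −1.80 (standard error 0.16, adjusted p = 0.00245) and without TERT-off replicate 2 it was −2.90 (standard error 0.16, adjusted p = 7.99e-05). In each such fit, for every gene, the lone mouse of a cohort is assumed to vary like the 2 mice of the other, and the small errors without a TERT-off mouse leave out the spread between the TERT-off mice, so they say nothing of how stable the call is. By time, the difference was −0.97 at 0 h (standard error 0.66 at each time, adjusted p = 0.713), −1.50 at 6 h (adjusted p = 0.213), −2.99 at 12 h (adjusted p = 0.0461) and −2.56 at 24 h (adjusted p = 0.0714). Fzd5 at 12 h was the only Frizzled call at a single time (1 of 16), where limma called 2.07% of all probe sets (0.591% lower). At the other times it called 0.0352% of all at 0 h, 1.55% at 6 h and 1.8% at 24 h. At an unadjusted p under 0.05 there were 2 Frizzled probe sets before injection and 2, 7 and 7 after 6, 12 and 24 h. Without TERT-on replicate 1 or 2 the 12 h difference was −2.96 (adjusted p = 0.232) and −3.03 (adjusted p = 0.379), and with no filter on low values it was −2.99 (adjusted p = 0.119).

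**Figure D2:**
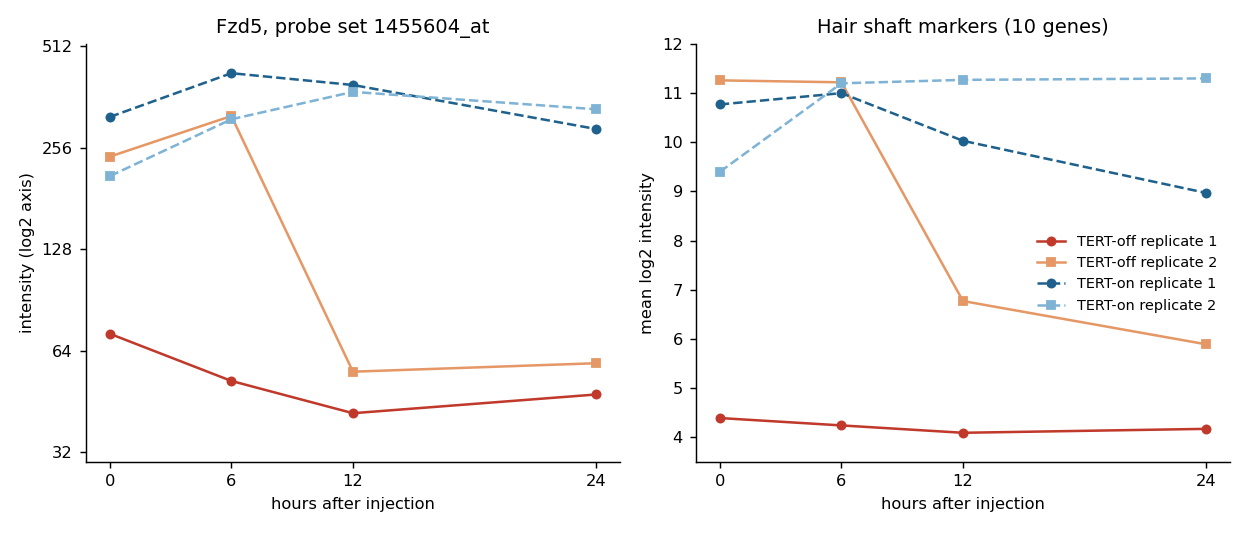
Left, intensity of Fzd5 (log2 axis) against hours after injection, 1 line per mouse and 1 point per array, with TERT-off mice in red and orange and TERT-on mice in dark and light blue. Right, mean log2 intensity of 10 hair shaft markers on the same arrays. TERT-off replicate 1 is low in both panels at every time, and TERT-off replicate 2 drops in both between 6 and 12 h.

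Ordered by geometric mean and starting with the lowest, the Fzd5 level of the TERT-off groups was 48.2 (12 h), 52.8 (24 h), 129 (6 h) and 132 (0 h), and that of the TERT-on groups 258 (0 h), 311 (24 h), 364 (6 h) and 383 (12 h). Replicate values of every pair of neighbours in this order overlapped. The TERT-off groups of 0 and 6 h were the widest, with replicates at 71.9 and 241 and at 52.1 and 318.

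The fall of Fzd5 in TERT-off replicate 2 came in a single interval. Its log2 step was 0.40 from 0 to 6 h, −2.52 from 6 to 12 h and 0.08 from 12 to 24 h, while in TERT-off replicate 1 no step was larger than 0.47 in size. Tert in replicate 2 was already at 16.1 at 6 h, when Fzd5 stood at 318. The hair shaft markers of replicate 2 (mean log2 intensity) were 11.26 before injection and 11.22, 6.77 and 5.89 after 6, 12 and 24 h, with the fall in the same interval, and those of replicate 1 lay between 4.09 and 4.39 at all times, against 8.97 to 11.30 in the TERT-on mice. Summed intensities of the 10 hair shaft markers over 6 to 24 h ranged from 250 to 22379 in TERT-off skin and from 6353 to 29623 in TERT-on skin. For the 8 inner root sheath markers these sums were 1351 to 22486 in TERT-off skin and 21611 to 32557 in TERT-on skin. The 8 hair matrix markers, of the dividing cells at the base of the follicle, stepped by −2.33 in mean log2 intensity in TERT-off replicate 2 between 6 and 12 h and by 0.08 in replicate 1, and their sums were 812 to 4234 in TERT-off skin and 2462 to 4087 in TERT-on skin. Of the hair shaft list 4 genes had values at or under the floor used for the fit. In these bulk samples fewer cells of a type and less RNA per cell cannot be told apart, and the part of the follicle cells in the Fzd5 difference was not tested.

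The further Fzd5 probe set, 1422937_at, was dim and did not pass the filter. It read 3.80 to 23.8 over 6 to 24 h in TERT-off skin and 18.9 to 35.2 in TERT-on skin. Its highest TERT-off value, 23.8, was that of replicate 2 at 6 h, the same array on which 1455604_at was high. On 6 arrays it lay under the floor of 7.71 used for the fit, so that its fitted difference depends on the floor and is not given.

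Fzd8, the other member of the subfamily, was measured close to the median of the table, with intensities of 18.8 to 36.3 over 6 to 24 h in TERT-off skin and of 25.1 to 31.9 in TERT-on skin on probe set 1423348_at, and the cohorts overlapped. Its log2 difference was −0.27 (standard error 0.19, adjusted p = 0.305), with −0.54 (adjusted p = 0.0408) without TERT-off replicate 2 and 0.00 (adjusted p = 0.995) without TERT-off replicate 1. TERT-off replicate 2 reached the highest value of all arrays, 36.3, at 24 h, the time at which Fzd5 was low in the same mouse.

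Fzd1, Fzd2 and Fzd7 are close relatives that act mostly through β-catenin, and Fzd7 is known as a receptor of stem cells in the intestine. Fzd1 was lower in TERT-off skin. On probe set 1437284_at its intensity over the 4 times, in order, was 395, 504, 448 and 482 in TERT-off replicate 1 and 672, 897, 556 and 515 in TERT-off replicate 2. The TERT-on mice gave 853, 878, 796 and 823 in replicate 1 and 712, 796, 784 and 725 in replicate 2. TERT-off replicate 2 at 6 h was the highest of all 16 arrays, and the other TERT-off arrays of 6 to 24 h lay below every TERT-on array. The log2 difference over 6 to 24 h was −0.54 (standard error 0.16, adjusted p = 0.0297 from limma), and −0.60 already at 0 h (standard error 0.26, adjusted p = 0.592). It was −0.48 without TERT-on replicate 1 (adjusted p = 0.229), −0.59 without TERT-on replicate 2 (adjusted p = 0.198), and −0.33 (adjusted p = 0.0472) and −0.74 (adjusted p = 0.0018) without TERT-off replicate 1 and 2.

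The other Fzd1 probe set, 1422985_at, was the only Frizzled probe set whose cohorts did not overlap over 6 to 24 h, at 44.1 to 69.5 in TERT-off skin and 73.4 to 80.1 in TERT-on skin. Of all probe sets without empty cells 4.13% had every TERT-off array lower and 6.27% every TERT-off array higher. Its difference of −0.44 (standard error 0.20, adjusted p = 0.114) did not pass the test over all arrays. It passed in a fit of the 6 to 24 h arrays alone (standard error 0.13, adjusted p = 0.0304), and read 41.9 on the TERT-on array of low RNA quality, against 73.4 to 80.1 on the other arrays of that cohort. Without that array alone the adjusted p was 0.0754.

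Fzd2 and Fzd7 overlapped between the cohorts and did not pass the test over all arrays. Fzd2, a receptor of Wnt5a among other ligands, read 136 to 201 over 6 to 24 h in TERT-off skin and 187 to 271 in TERT-on skin on 1418534_at, and differed in log2 by −0.36 ± 0.15 (SE, adjusted p = 0.103). It passed with the arrays centred on their medians (−0.42, adjusted p = 0.049) and without TERT-off replicate 2 (−0.47, adjusted p = 0.0298). Its 2 further probe sets gave −0.30 and −0.29. Fzd7 read 296 to 470 in TERT-off skin and 351 to 483 in TERT-on skin, differing in log2 by −0.21 ± 0.14 (SE, adjusted p = 0.293).

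At 0 h Fzd7 stood further apart than later, at 285 and 431 in the TERT-off mice and 669 and 559 in the TERT-on mice, differing in log2 by −0.80 ± 0.23 (SE, unadjusted p = 0.00481, adjusted p = 0.507 from limma). In TERT-on replicate 1 Fzd7 was 351 by 6 h, and the mean change from 0 h was −0.74 in that mouse and −0.44 in TERT-on replicate 2, against 0.17 and −0.16 in the TERT-off mice. Without the TERT-on array of low RNA quality the 0 h difference was −0.67 (adjusted p = 0.849).

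Fzd3 and Fzd6 act mainly in planar cell polarity, the pathway that lays the hairs of mouse skin in one direction. Fzd6 was slightly lower in TERT-off skin. On probe set 1417301_at it read, over the 4 times in order, 319, 410, 340 and 264 in TERT-off replicate 1 and 471, 562, 306 and 322 in TERT-off replicate 2. In the TERT-on mice it read 477, 497, 542 and 390 in replicate 1 and 373, 441, 484 and 487 in replicate 2. At 12 and 24 h all TERT-off arrays were lower than all TERT-on arrays, and at 6 h the cohorts overlapped, with the highest value of all arrays in TERT-off replicate 2. As for Fzd5, the share of all probe sets apart at 12 and 24 h was not counted. The log2 difference over 6 to 24 h was −0.40 (standard error 0.14, adjusted p = 0.0496 from limma), at the edge of the threshold. It was −0.31 (adjusted p = 0.111) without TERT-off replicate 1, −0.40 (adjusted p = 0.203) without TERT-on replicate 1 and −0.41 (adjusted p = 0.244) without TERT-on replicate 2. The dimmer probe set 1448662_at gave −0.31 (standard error 0.20, adjusted p = 0.256).

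Fzd3 had the largest differences after Fzd5, on 2 probe sets of low intensity. On 1450135_at it read, over the 3 times after injection, 44.6, 40.5 and 27.2 in TERT-off replicate 1 and 64.7, 42.4 and 43.9 in TERT-off replicate 2, against 75.6, 70.8 and 57.7 in TERT-on replicate 1 and 69.9, 77.6 and 74.8 in TERT-on replicate 2. The 4 mice were alike at 0 h, at 38.6 and 42.0 in the TERT-off cohort and 43.9 and 43.3 in the TERT-on cohort. From that level the TERT-on cohort rose on this probe set (fitted log2 change to 6 to 24 h 0.70), while the TERT-off cohort hardly moved (0.08). Neither change passed the test. The difference over 6 to 24 h was −0.73 (standard error 0.15, adjusted p = 0.00737 from limma). On 1449730_s_at, whose suffix marks probes that can match more than a single transcript, it was also −0.73 (standard error 0.17, adjusted p = 0.0115), with 21.5 to 37.2 in TERT-off skin and 31.8 to 55.4 in TERT-on skin. Without TERT-on replicate 1 the differences were −0.80 (adjusted p = 0.073) and −0.83 (adjusted p = 0.0845), and without TERT-on replicate 2 they were −0.67 (adjusted p = 0.154) and −0.63 (adjusted p = 0.201).

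The brightest Fzd3 probe set, 1434788_at, which stands for the gene, read 66.6 to 154 over 6 to 24 h in TERT-off skin and 116 to 142 in TERT-on skin, and its difference of −0.47 (standard error 0.17, adjusted p = 0.0598) did not pass. It was −0.17 (adjusted p = 0.419) without TERT-off replicate 1 and −0.77 (adjusted p = 0.00624) without TERT-off replicate 2, whose value of 154 at 6 h was the highest of 6 to 24 h. The 3 Fzd3 probe sets tested thus had the same direction of cohort difference, and 2 of them passed. Their changes from 0 h were unlike. On 1434788_at the fitted log2 change to 6 to 24 h was −0.59 in TERT-off and −0.33 in TERT-on mice. On 1449730_s_at it was −0.57 and −0.04, and none of these changes passed.

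Fzd4, Fzd9 and Fzd10 form the remaining branch of the family. Fzd4, the receptor of norrin in retinal and other blood vessels, read 179 to 243 over 6 to 24 h in TERT-off skin and 151 to 245 in TERT-on skin on 1434756_at, and differed in log2 by 0.05 ± 0.13 (SE, adjusted p = 0.797). The sign of this value turned when the arrays were centred on their medians (−0.01), and the dimmer probe set 1419301_at gave −0.15. Beside these values, 4 of 6 endothelial markers were higher in TERT-off skin (median 0.59).

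Fzd10 read 193 to 384 in TERT-off skin and 208 to 269 in TERT-on skin, with a difference of 0.20 (standard error 0.23, adjusted p = 0.557). Its lowest value, 95.9, was that of TERT-on replicate 1 at 0 h, the array of low RNA quality. Fzd9 was dim on every array, at 4.58 to 16.7 on its single probe set, and was not tested. The other 8 probe sets left out by the filter, of Fzd3, Fzd4, Fzd6, Fzd7, Fzd8 and Fzd10, never exceeded 33.3.

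**Figure D3:**
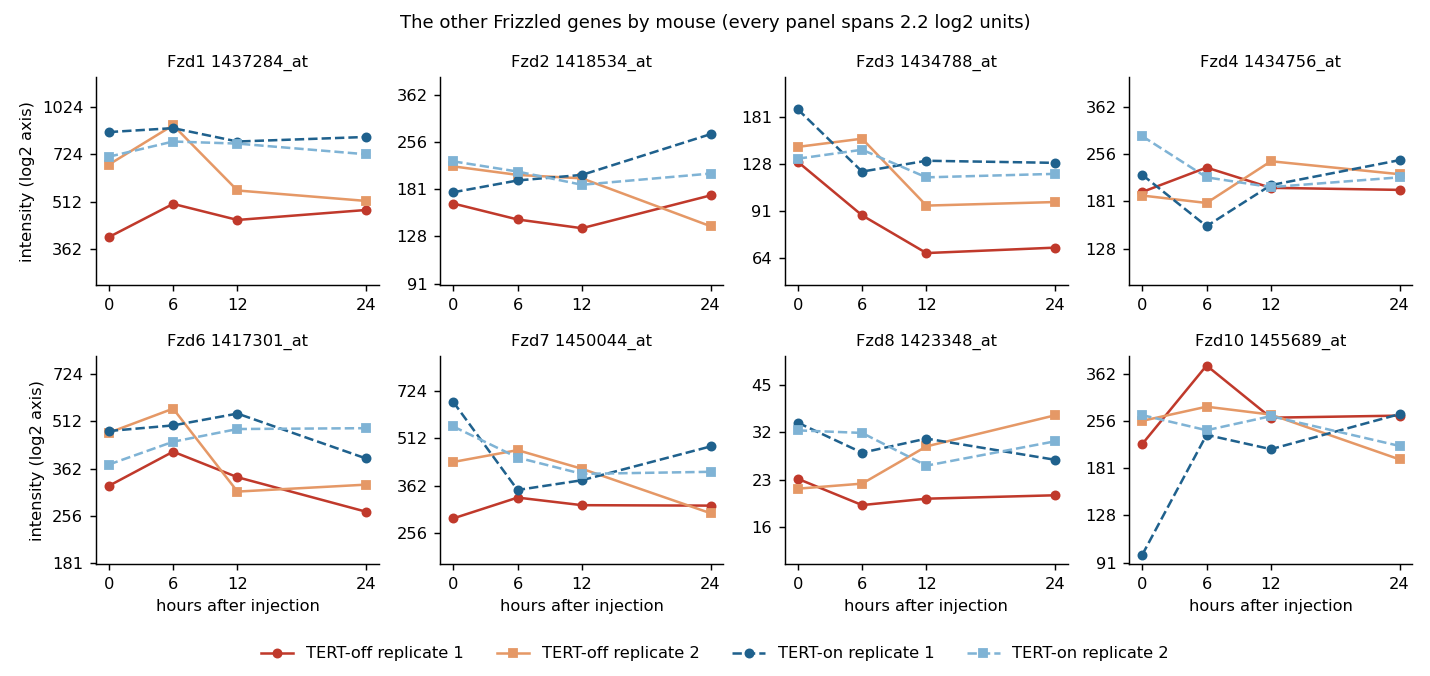
Intensity (log2 axis) of the probe sets that stand for the 8 Frizzled genes other than Fzd5 against hours after injection, 1 line per mouse. All panels span the same range on the log2 scale, and levels of different probe sets are not comparable. Fzd1, Fzd3 and Fzd6 step down in TERT-off replicate 2 between 6 and 12 h, and Fzd10 is low in TERT-on replicate 1 at 0 h.

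Set beside the other receptors, Fzd5 had the largest cohort difference at every time, 0 h included. At 0 h its log2 difference of −0.97 stood against a mean of −0.28 over the 8 other genes, whose lowest was Fzd7 at −0.80. At 6 h it was −1.50 against a mean of −0.07, at 12 h −2.99 against −0.28 and at 24 h −2.56 against −0.40. The gap between Fzd5 and that mean was thus −0.69 before injection, then −1.43, −2.71 and −2.16 after 6, 12 and 24 h, and −2.10 over the 3 later times. These gaps are descriptions of arrays of 4 mice, and the gap was not tested. At 0 h, before injection, 7 of the 8 other genes already had a negative difference. At 6 h 4 of 8 did, at 12 h 6 of 8 and at 24 h all 8, from −0.63 (Fzd1) to −0.05 (Fzd8). The share of all genes with a negative difference at each time was not counted. The median of all genes was −0.02 at 0 h and 0.04, 0.06 and 0.01 at 6, 12 and 24 h.

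Between 6 and 12 h, when TERT-off replicate 2 lost Fzd5 signal (a log2 step of −2.52), the steps in that mouse were −0.87 for Fzd6, −0.71 for Fzd3 and −0.69 for Fzd1. Fzd7 (−0.20), Fzd10 (−0.09) and Fzd2 (−0.04) had small steps, and Fzd8 (0.39) and Fzd4 (0.44) positive ones. In TERT-off replicate 1, where the hair shaft markers were low throughout, the steps of Fzd5, Fzd6, Fzd3 and Fzd1 over the same interval were −0.32, −0.27, −0.40 and −0.17. In the TERT-on mice the steps of these 4 genes lay between −0.29 and 0.27. Fzd6, Fzd3 and Fzd1, with the larger steps down beside Fzd5, also passed the test over 6 to 24 h on at least 1 probe set. For Fzd3 this was not the probe set whose step is given. The arrays of 6 and 12 h enter both measures, so the match is no separate result.

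**Figure D4:**
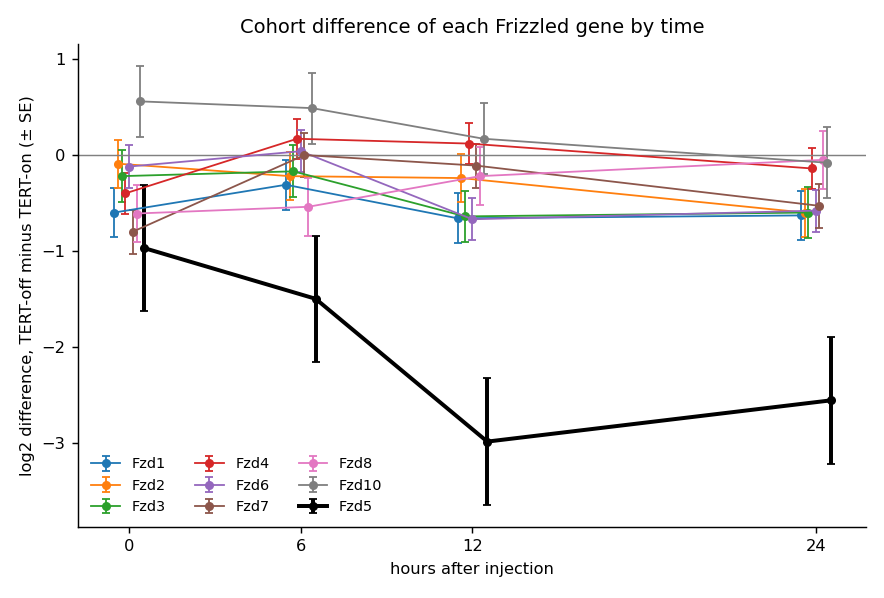
Cohort difference (log2, TERT-off less TERT-on) at 0, 6, 12 and 24 h for 9 Frizzled genes (bars are the standard error of the limma fit, 2 arrays against 2 at each time; points are shifted sideways for legibility). Fzd5, in black, lies at −0.97, −1.50, −2.99 and −2.56, and the 8 other genes stay between −0.80 and 0.56.

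Read as changes from the mouse's own 0 h sample, no Frizzled probe set passed. In TERT-off mice 0 of 16 passed limma's test for the mean change to 6 to 24 h (3 at an unadjusted p under 0.05), where 0.45% of all probe sets were called, and in TERT-on mice 0 of 16 (3 unadjusted), where 0.172% were called. The difference between the 2 changes passed for 0 of 16 (2 unadjusted), where 0.00782% were called. For Fzd5 the TERT-off mice changed on average by −0.62 and −1.25, against 0.21 and 0.68 for the TERT-on mice, and the fitted difference of the changes was −1.38 (standard error 0.73, adjusted p = 0.424). The mean change of Fzd5 was thus negative in both TERT-off mice and positive in both TERT-on mice, without passing the test. The contrast of 24 h against 6 h was also called for 0 of 16 (0 unadjusted), where 0.129% of all were called.

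The 0 h baseline of the TERT-on cohort carried the array of low RNA quality, and some receptors were low on it. The Fzd2 probe set 1418532_at read 34.7 there, against 125 to 208 on the other TERT-on arrays, and 1418533_s_at read 78.7, against 182 to 306, whereas 1418534_at of the same gene read 177, against 187 to 271. The fitted change from 0 h in TERT-on mice was 1.03 on 1418532_at (adjusted p = 0.228) and −0.13 without that array (adjusted p = 0.934), and for Fzd10 it was 0.56 (adjusted p = 0.299) and −0.17 (adjusted p = 0.845). For Fzd5 it was 0.44 (adjusted p = 0.665) and 0.72 (adjusted p = 0.778).

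The ligands and partners of the receptors were read from lists that share no gene with the Frizzleds. Of 11 measured Wnt ligands 5 were lower and 1 higher over 6 to 24 h (median −0.24; log2 differences are given here with the standard error of the limma fit). Wnt11 (−1.78 ± 0.37) and Wnt5a (−1.36 ± 0.35), which act largely without β-catenin, were lower. Wnt5b had −1.36 on its brighter probe set and 0.72 (adjusted p = 0.207) on the dimmer. Wnt2 was higher (1.19 ± 0.24).

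Among 8 measured co-receptors Ror2, a Wnt5a receptor, was lower (−0.86 ± 0.29). Reck (1.25 ± 0.21) and Adgra2 (1.09 ± 0.19), which together pass Wnt7 signals to Frizzled in endothelium, were higher. Lrp6 had −0.19 (adjusted p = 0.384 from limma) on its brighter probe set and −0.95 (adjusted p = 0.00459) on the dimmer. Of 9 genes that set receptor turnover 3 were lower and 0 higher: the ubiquitin ligases Znrf3 (−0.70 ± 0.22) and Rnf43 (−0.52 ± 0.17), which clear Frizzled from the membrane, and the R-spondin receptor Lgr4 (−0.44 ± 0.14). Of 9 secreted antagonists Sfrp1 (−0.55 ± 0.15) and Notum (−0.52 ± 0.11) were lower and Sfrp2 (1.26 ± 0.28) and Sfrp4 (1.19 ± 0.32) higher.

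Of 11 measured Dishevelled and planar polarity genes 6 were lower and 0 higher, the largest being the core polarity genes Prickle1 (−0.96 ± 0.27), Vangl2 (−0.82 ± 0.20), Celsr1 (−0.81 ± 0.18) and Celsr2 (−0.78 ± 0.15), partners of Fzd3 and Fzd6. Dvl1 had a difference of 0.03 and Dvl2 of −0.10, neither past the test. Of 10 β-catenin effectors Ctnnb1, β-catenin itself, was lower by a small amount (−0.21 ± 0.06) and Bcl9 higher (0.51 ± 0.15) on its brighter probe set, with −0.26 (adjusted p = 0.28) on the dimmer. Of 11 target genes of β-catenin 6 were lower and 0 higher, led by Bambi (−3.09 ± 0.66), Nkd2 (−1.13 ± 0.33), Ccnd1 (−0.83 ± 0.24) and Znrf3. Of these 6, Znrf3, Rnf43 and Notum were already counted on the turnover and antagonist lists, so the lists are not separate results. Axin2, the target most often used as a readout, had 0.07 (adjusted p = 0.701 from limma). Lef1, on both of the last lists, had −0.39 (adjusted p = 0.0932 from limma) on its brighter probe set and −1.45 (adjusted p = 0.0225) on the dimmer. Among all genes 12.6% were lower and 16.9% higher. At 0 h the list medians were negative too. They were −0.28 (ligands), −0.24 (co-receptors), −0.37 (turnover), −0.31 (antagonists), −0.27 (polarity), −0.16 (effectors) and −0.36 (targets), against −0.02 for all genes. No called gene of these lists turned its sign when the arrays were centred on their medians or quantile normalized, although Ctnnb1 then lost its call under quantile normalization.

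**Figure D5:**
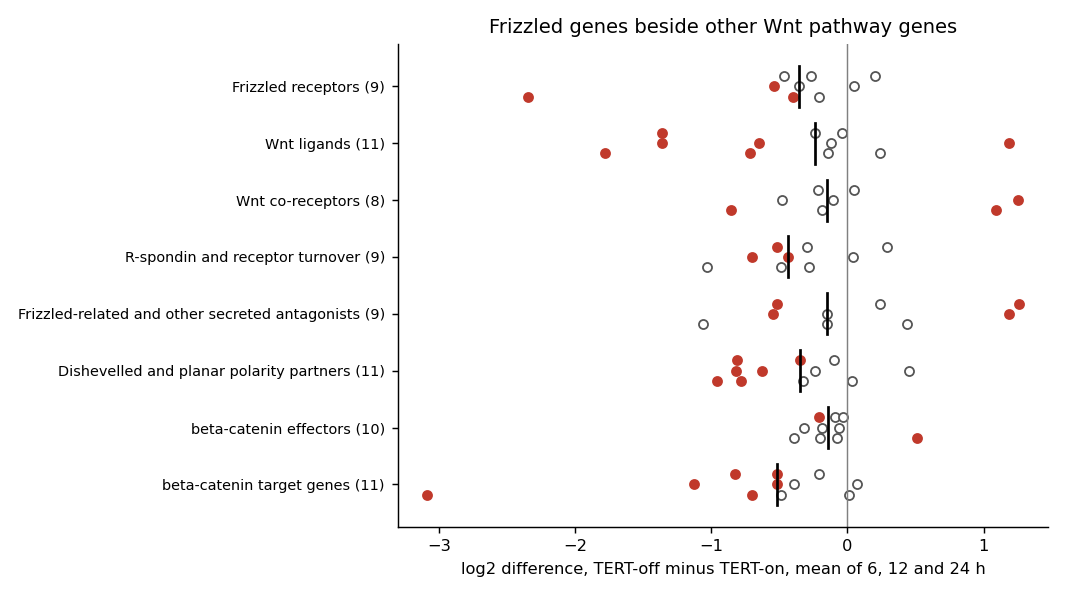
Cohort difference (log2, TERT-off less TERT-on) over 6 to 24 h for each measured gene of 8 Wnt pathway lists, with the number measured in brackets (filled red: adjusted p under 0.05; black line: median of the list; dots are offset vertically only to separate them). Bambi at −3.09 and Fzd5 at −2.35 are the lowest 2 points, and the medians lie between −0.52 and −0.14. Genes that stand on several lists are drawn on each.

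The genes whose log2 values followed those of Fzd5 most closely over the 16 arrays, out of 12304 genes with a value on all of them, were AU018091 (Pearson r = 0.988, Spearman rho = 0.941), Usp6nl (0.985, 0.909), Ret, a receptor tyrosine kinase (0.984, 0.938), the zinc exporter Slc30a1 (0.984, 0.856), the lipid kinase Pip5k1b (0.983, 0.896), the sodium-proton exchanger Slc9a2 (0.983, 0.901), Gm12446 (0.982, 0.909) and St14, the membrane protease matriptase (0.981, 0.859). With any 1 mouse left out these r values stayed between 0.971 and 0.994. Over 6 to 24 h all 8 were lower in TERT-off skin, by log2 differences from −4.37 (AU018091) to −0.77 (Usp6nl). This direction follows from their choice by likeness to Fzd5 on the same arrays and is no separate result. The arrays share mice and the values of Fzd5 lie in separate ranges, so r describes mainly which arrays are high and which low.

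For Fzd1 the closest genes were Vdr, the vitamin D receptor that hair cycling requires (r = 0.963), Tenm2 (0.956), N4bp3 (0.955) and Prkci (0.948), and for Fzd6 they were Jmy (0.953), Nfe2l3 (0.947), Mark3 (0.944) and Nt5e (0.93). Of these 8 only Mark3 did not pass the test over 6 to 24 h (−0.11, adjusted p = 0.311). They too were chosen by likeness to called receptors on the same arrays, so this count is no separate result.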

How the data were processed

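Total RNA of 16 biopsies was hybridized to Affymetrix Mouse Genome 430 2.0 arrays. The deposited table gives a linear intensity for each probe set, made by the authors in dChip through normalization to an invariant set of probes and a model of the difference between perfect-match and mismatch probes. The table held 45101 probe sets, 1425 empty cells and values from 1 to 16736. Symbols were updated through the gene ID (34958 probe sets had 1 symbol, 932 several and 9211 none), and the 64 controls of the array were dropped.

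The 20th percentile of the table (7.71) served as a floor, log2 was taken, and probe sets above the table median (34.4) on at least 2 arrays were kept (25563, covering 12580 genes). All tests are two-sided and come from 1 limma fit (3.58.1, R 4.3.3, statmod 1.5.0) of 8 groups, in which arrays of a mouse were correlated as a block (correlation 0.0728), with an intensity trend and Benjamini-Hochberg adjustment over all probe sets kept, called under 0.05. The replicate number within a cohort was taken as the mouse, since the study describes serial biopsies. With so low a correlation the fit counts the arrays of a mouse as nearly independent, although there were only 2 mice a cohort. With mouse means in place of arrays Fzd5 (adjusted p = 0.0165 from limma) and Fzd6 (0.0497) kept their calls over 6 to 24 h, and Fzd1 (0.0599) lost it. An exact permutation test of 2 against 2 could not go below 0.333. The fit was tested on simulated data. SAM, which the study used, was not run. The highest correlation of 2 arrays was 0.989.

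The receptors, the gene lists and the tests were chosen with earlier results of these data known. By rule, every Frizzled probe set, up to 4 called genes per pathway list with the largest differences, and the 8 genes most like Fzd5 and 4 most like each other called receptor were named. Axin2, Dvl1, Dvl2, Lrp6 and Lef1 were named after their values were seen. Other settings were tried for normalization, the filter, the floor, the mouse block, the trend, the arrays used, each mouse and several probe sets a gene. Promoter windows came from a RefSeq table (GRCm38.p6), and Fzd2, Fzd3, Fzd6 and Fzd8 were not scanned. Figures were drawn with matplotlib 3.10.9.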

Additional observations from a re-analysis of the deposited data

How the results depend on the processing

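The lower Fzd5 level in TERT-off skin over 6 to 24 h kept its direction in all 17 alternatives and its call in 15 of them, from −2.90 to −1.80 with a mouse left out; calls kept without a TERT-off mouse rest on the spread of the TERT-on mice, and calls were lost without either TERT-on mouse (given above). The 12 h difference of Fzd5, near the threshold, stayed at −2.99 but lost its call with the floor at the table median (adjusted p = 0.0501 from limma), with no filter (0.119), no mouse block (0.0503), no trend (0.0537) and without the 0 h array of TERT-on replicate 1 (0.0567), and ranged from −3.20 to −2.79 with a mouse left out. The difference between the changes from 0 h of Fzd5 ranged from −1.69 to −1.06 with a mouse left out and never passed. The count of Frizzled probe sets past the test was 3 with mouse means in place of arrays, and 0 to 10 with a mouse left out (0 without TERT-on replicate 1 or 2, with 3 and 4 at an unadjusted p under 0.05, and 10 without TERT-off replicate 2). The count of genes was 1 with no filter, 5 with the arrays centred on their medians, and 0 to 6 with a mouse left out. Fzd6 lost its call in 8 of 17 alternatives and Fzd1 in 4, while Fzd3 gained one in 6, Fzd2 in 2 (arrays centred on medians, and without TERT-off replicate 2) and Fzd8 in 1 (−0.54, adjusted p = 0.0408, without TERT-off replicate 2). Values without a call turned sign for Fzd8 (0.01 with the floor at the table median, 0.00 without TERT-off replicate 1) and Fzd4 (−0.01 centred, −0.05 as the mean of its probe sets). The cause of these changes was not tested. Replicate numbers were not read as pairs across cohorts. Deviations of same-numbered mice correlated across cohorts at −0.0486, −0.123, 0.109 and 0.0847 at 0, 6, 12 and 24 h. Between times within a cohort the same measure lay between 0.142 and 0.646 in TERT-off and between −0.147 and 0.33 in TERT-on. In the TERT-on cohort these values do not show by themselves that a replicate number is 1 mouse. With the replicate number as a block, 8371 probe sets were called in place of 6625. Among them were 7 of 16 Frizzled probe sets and 4 of 9 genes, with Fzd5 at −2.35 (adjusted p = 0.00186 from limma). The number of mice, 2 a cohort, limits the precision, and Fzd8 and Fzd9 lay too near the dim end of the table for small differences to be read.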

Other observations

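Fzd10os, a gene annotated on the strand opposite Fzd10 and singled out after its values were seen, read 48.4 to 203 in TERT-off skin over 6 to 24 h and 117 to 208 in TERT-on skin, and was lower by limma's test (log2 difference −1.11 ± 0.26, SE, adjusted p = 0.0113), while Fzd10 itself had 0.20 (adjusted p = 0.557).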
